A study of Homo sapiens with 6 samples.

Results

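The MYC, MAX and MXD network was followed in HCT116 cells treated with oxaliplatin. Its members were the 10 genes MYC, MYCL, MYCN, MAX, MXD1, MXD3, MXD4, MXI1, MNT and MLX, found by their gene symbols among the 27942 genes in the deposited count table. Of the 10, 9 passed the filter on low counts, as did 13727 genes in all, and MYCN had no count in any library. HCT116 is an established human colorectal carcinoma line which, according to the study's methods, has wild-type p53 and APC and a mutated CTNNB1. RNA was sequenced from 3 samples left untreated (NT) and from 3 that had received 0.5 µM oxaliplatin, a platinum drug that forms DNA adducts, for 24 h (OXA). All 6 libraries came from this 1 line and from polyadenylated RNA, and neither the labels nor the methods say whether libraries of a group were separate cultures, so that the errors may be technical.

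The proteins of this network share a basic helix-loop-helix leucine zipper domain and work as dimers. MYC binds DNA only together with MAX and activates genes for ribosome production, metabolism and cell growth. The MXD proteins, MXI1 and MNT compete with MYC for MAX and bring the SIN3 corepressor with its histone deacetylases to the same sites, a sequence called the E-box (CACGTG). MLX takes the place of MAX in a parallel branch, where it pairs with MLXIP (MondoA) and MLXIPL (ChREBP), the sensors of glucose metabolites, and also with some of the antagonists. In the colon, MYC is a classical target of WNT signalling, and the MXD genes are mostly linked to cells that leave the cell cycle.

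The promoters are given because the dimers of this network bind the E-box, so the window that holds one can be seen beside the values of its gene. RefSeq start sites (GRCh38.p14) were used for the 9 members other than MYC, in 12 windows of the 250 bases before a start site. Both windows of MAX lie inside the span of its gene, which begins at chr14:65102695 on the minus strand. The bases before that position were not searched, so the counts of matches do not cover that promoter of MAX. The windows of MYCL and MXD1 also lie inside the spans of their genes. MYC was left out of this search, so the counts of matches do not cover it. The E-box occurred in 3 of the 12 windows, those of MLX, MNT and MXD4, where 6.34% of 35116 such windows hold it. The share over all windows was not matched for GC content. The variant CACGCG, searched on both strands, was in 0 of the 12 windows, where 9.72% of all windows hold it. The windows of MLX, MNT and MXD4 are printed 5′ to 3′ with the E-box in capitals, and that of MXD1 is the window of a member that rose and has no E-box there. They lie at chr17:42566850-42567099 on the plus strand (MLX), chr17:2401061-2401310 on the minus strand (MNT), chr4:2262110-2262359 on the minus strand (MXD4) and chr2:69914859-69915108 on the plus strand (MXD1).
MLX: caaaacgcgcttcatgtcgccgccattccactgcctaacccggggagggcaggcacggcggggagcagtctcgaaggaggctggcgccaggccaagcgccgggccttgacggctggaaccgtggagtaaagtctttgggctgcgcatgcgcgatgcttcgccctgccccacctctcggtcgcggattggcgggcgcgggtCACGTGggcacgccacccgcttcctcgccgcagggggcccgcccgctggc
MNT: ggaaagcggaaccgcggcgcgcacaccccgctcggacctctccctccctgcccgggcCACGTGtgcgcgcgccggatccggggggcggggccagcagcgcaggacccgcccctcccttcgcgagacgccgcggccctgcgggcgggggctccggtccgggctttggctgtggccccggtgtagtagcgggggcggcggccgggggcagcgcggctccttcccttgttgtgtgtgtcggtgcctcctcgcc
MXD4: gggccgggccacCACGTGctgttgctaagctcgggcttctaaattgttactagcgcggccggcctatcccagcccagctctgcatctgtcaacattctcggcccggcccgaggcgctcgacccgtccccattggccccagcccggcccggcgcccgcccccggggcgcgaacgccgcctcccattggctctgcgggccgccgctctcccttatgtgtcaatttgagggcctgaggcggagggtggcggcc
MXD1: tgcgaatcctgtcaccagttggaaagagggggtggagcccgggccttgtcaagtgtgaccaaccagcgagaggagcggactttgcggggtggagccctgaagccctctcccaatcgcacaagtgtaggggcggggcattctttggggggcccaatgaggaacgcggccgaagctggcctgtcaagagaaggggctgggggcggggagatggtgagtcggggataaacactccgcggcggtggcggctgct
The E-box began 50 bases before the start site in MLX, 193 bases in MNT and 238 bases in MXD4. The 4 windows were rich in G and C, with 71.2% for MLX, 78% for MNT, 70.4% for MXD4 and 64.4% for MXD1. A match of these letters is a description of the window, and no binding was measured here.

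Library totals lay between 32979521 and 40967880 counts, and the 10 most abundant genes took 5.69% to 6.09% of them. The values printed are normalized counts, which are the deposited counts scaled by 1 factor per library (TMM). Of the 10 colon epithelium markers, 9 had more than 3 counts in every library, and CDX1 was at 0 throughout. Their summed level was 2230 to 3240 CPM, counts scaled to a common library total, in NT and 3470 to 4230 in OXA. The markers did not move together. KRT19 had 6287, 15095 and 15939 deposited counts in NT and 22533, 32691 and 33089 in OXA, whereas CDH1 had 4254, 3874 and 4106 and then 3585, 3282 and 3505. Of the markers of other cell types, 1 of 6 for fibroblasts (COL1A1), 1 of 5 for leukocytes (ITGAM) and 1 of 3 for endothelium (VWF) had more than 3 counts in every library, and DCN and LUM were at 0 in all 6. Their summed levels were 3.27 to 8.26 CPM in NT and 4.83 to 8 in OXA for fibroblasts, 0.257 to 0.459 and 0.303 to 0.464 for leukocytes, and 0.591 to 0.764 and 0.485 to 0.781 for endothelium. NT library 1 stood apart from NT libraries 2 and 3, with a chi-square per gene of 83.6 and 76.1, against 19.3 to 29.6 for the other pairs within a group. Genes rich in G and C were low in it, and results that involve such members are given with and without it.

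Across the network, the mRNA of MLX and MXD1 rose after oxaliplatin, and that of no member fell past the threshold. By edgeR's quasi-likelihood test at an adjusted p-value under 0.05, 2 of the 9 members tested were higher and 0 lower in OXA, where 2.78% of all genes tested were higher and 2.29% lower. At an unadjusted p-value under 0.05, 5 members were higher and 1 lower, which makes 66.7% of the members tested against 21.7% of all genes. DESeq2 called 3 members higher (MYC, MXD1 and MLX) and 0 lower, where it called 4.8% of all genes higher and 4.81% lower. limma-voom called MXD1 and MLX higher and 0 lower, where it called 2.73% of all genes higher and 2.11% lower. The median log2 fold change of OXA over NT (log2FC, given with its standard error, SE) was 0.36 over the 9 members and 0.023 over all genes tested. In 5 members, MYC, MAX, MXD1, MXI1 and MLX, all OXA libraries lay above all NT libraries, as in 14.5% of all genes. In 1 member, MYCL, all OXA libraries lay below all NT libraries, as in 14.4% of all genes. Because bulk RNA was measured, a change in the share of cells that express a gene and a change in mRNA per cell cannot be told apart.

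NT and OXA libraries that share a replicate number resembled each other. As an alternative planned beside the main fit, edgeR was also run with that number as a block. With this block, edgeR called 6 members higher, MYC, MAX, MXD1, MXD4, MXI1 and MLX, and 0 lower, where 12.1% of all genes were higher and 10.9% lower. Within the same-numbered pairs, 7 of the 9 members tested moved in the same direction in all 3 pairs, the exceptions being MXD3 and MNT, where 61.4% of all genes did so. Without a block, leaving out 1 library left 2 calls when it was NT library 1 and 0 calls when it was any other. Over all genes, the fit without NT library 1 called 623 higher and 571 lower of 13888. The fits without another library called 66 to 153 higher and 19 to 146 lower, against 381 and 315 in the main fit. With no filter on low counts, or with the factors for each gene that the authors used, 0 members were called without a block. Over all genes, no filter gave 331 higher and 347 lower of 19353, and the authors' factors 241 and 200 of 13727.

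**Figure D1:**
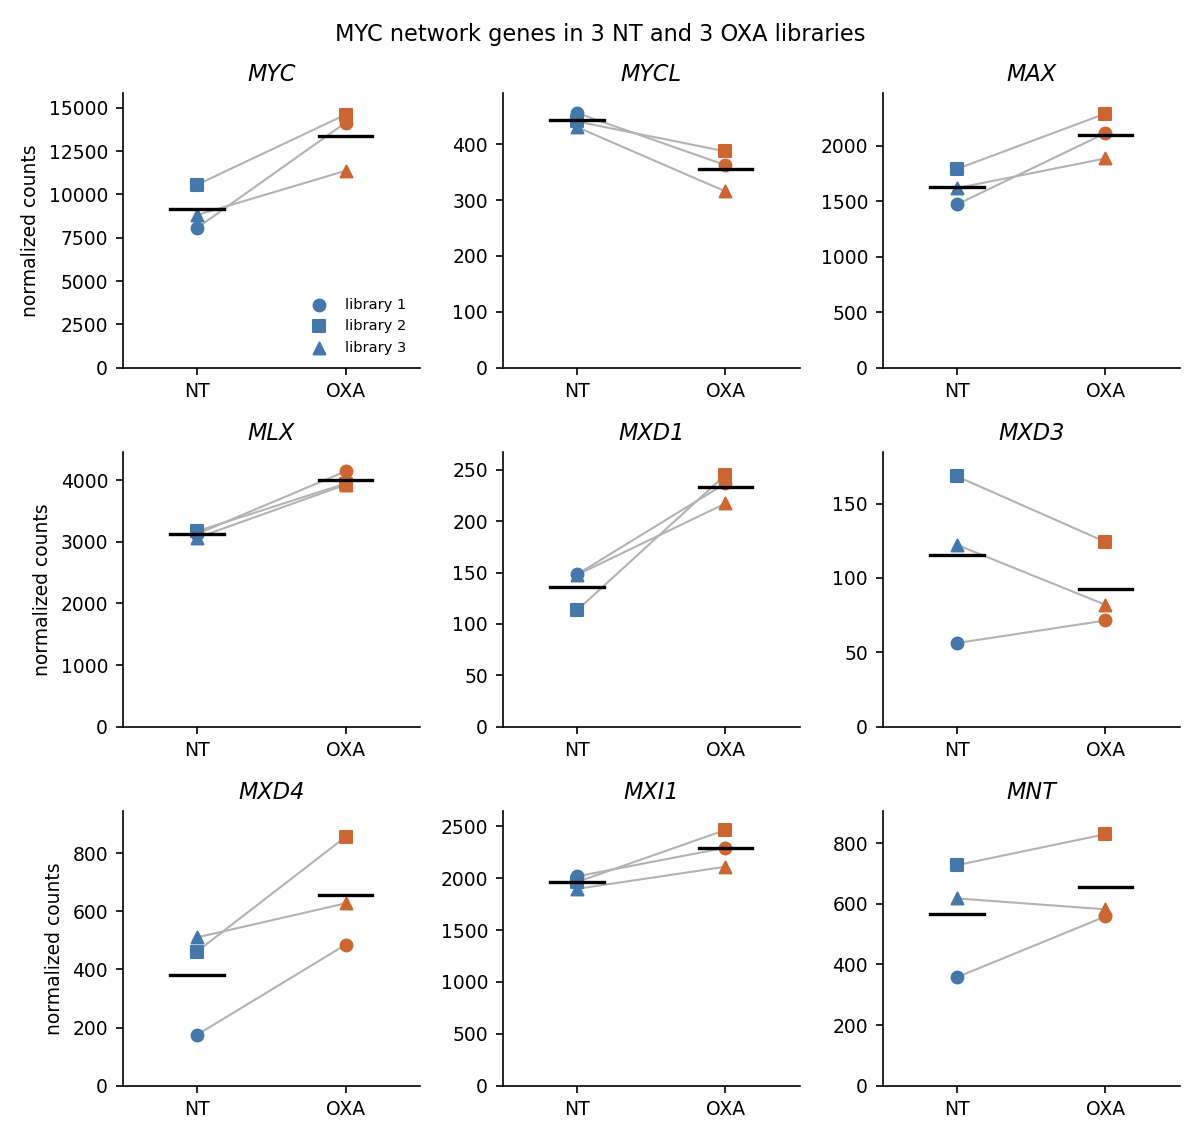
Normalized counts (y axis, from 0) of the 9 detected network genes in the 3 NT and 3 OXA libraries, with circles, squares and triangles for libraries 1, 2 and 3, grey lines between same-numbered libraries and black bars for group means. The OXA points of MYC, MAX, MXD1, MXI1 and MLX lie above all NT points, those of MYCL lie below, and the points of MXD3, MXD4 and MNT overlap between the groups.

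MYC, the central activator of the network, was by far the most abundant of the MYC family genes. The gene (ENSG00000136997, GRCh38 chr8:127735434-127742951, plus strand) had 8061, 10561 and 8810 normalized counts in NT libraries 1 to 3 and 14142, 14606 and 11365 in OXA libraries 1 to 3. The lowest OXA library was above the highest NT library, and OXA libraries 1 and 2 were the highest of all. The means were 9144 ± 1283 in NT and 13371 ± 1753 in OXA (SD, n = 3), a 1.46-fold difference. Its log2FC was 0.55 with an SE of 0.14 (adjusted p = 0.0655 by edgeR), so it missed the threshold. With the replicate block it was called higher (log2FC 0.55, adjusted p = 0.0131 by edgeR), and DESeq2 called it without a block (adjusted p = 0.00774). Within the same-numbered pairs, the log2 ratio of OXA to NT was 0.81, 0.47 and 0.37. Leaving out 1 library at a time moved the estimate between 0.47 and 0.63, with 0 of 6 such fits calling it. The antisense neighbour CASC11, which overlaps the MYC gene, had 1 to 4 counts per library.

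MYCL and MYCN encode the other two MYC proteins, best known from small cell lung cancer and neuroblastoma. MYCL (ENSG00000116990, chr1:39895428-39902256, minus strand) was the only member with OXA values below all NT values. It had 456, 441 and 431 normalized counts in NT and 362, 387 and 315 in OXA. The NT libraries were close together (442 ± 12.7), and the OXA libraries were lower and more spread (355 ± 36.4), a ratio of 0.802. The log2FC was -0.32 with an SE of 0.13 (adjusted p = 0.207 by edgeR), which is not past the threshold, and the block did not change this (adjusted p = 0.0649 by edgeR). Without NT library 1 the log2FC of MYCL was -0.30 (adjusted p = 0.215 by edgeR). When the dependence of every library on GC content was removed together with the block, MYCL was called lower (log2FC -0.43, adjusted p = 0.00581 by edgeR). This alternative was chosen after seeing the data, and it called 23.7% of all genes higher and 21.7% lower. MYCN (ENSG00000134323, chr2:15940550-15947007, plus strand) had 0 counts in all 6 libraries. A count of 0 allows up to 3 counts, or 0.0732 to 0.091 CPM depending on the library.

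MAX (ENSG00000125952, chr14:65006174-65102695, minus strand), the shared partner of MYC and its antagonists, had higher counts in OXA than in NT without passing the threshold. It had 1471, 1791 and 1618 normalized counts in NT and 2113, 2290 and 1885 in OXA. All OXA libraries were above all NT libraries, with library 2 the highest in each group. The means were 1627 ± 160 and 2096 ± 203, a ratio of 1.29. The log2FC was 0.37 with an SE of 0.12 (adjusted p = 0.117 by edgeR), and the block turned this into a call (adjusted p = 0.0228 by edgeR). The pairs gave log2 ratios of 0.52, 0.35 and 0.22. FNTB, a farnesyltransferase gene on the other strand that overlaps most of MAX, had a log2FC of 0.14 (SE 0.11, adjusted p = 0.522 by edgeR). The strand setting of the counting is not given in the sources used here, so reads of such overlaps cannot be assigned with certainty.

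MLX (ENSG00000108788, chr17:42567072-42573239, plus strand), the partner of the glucose-sensing factors, rose in OXA, and its libraries varied least of all members. It had 3124, 3169 and 3062 normalized counts in NT and 4141, 3943 and 3923 in OXA. The groups did not overlap, and the gap between them was several times the spread within either. The means were 3118 ± 53.7 and 4002 ± 120, a 1.28-fold rise with a log2FC of 0.36 and an SE of 0.077 (adjusted p = 0.0423 by edgeR). The pairs gave 0.41, 0.32 and 0.36, so all 3 showed the rise. The call was kept without NT library 1 (adjusted p = 0.0341 by edgeR) and lost without any of the other five, with adjusted p-values up to 0.195 by edgeR and log2FCs of 0.32 to 0.37. The antisense gene PSMC3IP, a recombination factor whose end overlaps 930 bases of MLX, moved the other way, from 625 ± 123 to 365 ± 26.0 normalized counts (log2FC -0.78 ± 0.17 SE, adjusted p = 0.0428 by edgeR).

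Of the partners of MLX and MAX outside the 10 members, 3 were looked at. MLXIP had means of 2953 ± 657 (NT) and 3029 ± 342 (OXA) normalized counts (log2FC 0.036 ± 0.17 SE, adjusted p = 0.929 by edgeR). The log2FC of MLXIP was -0.14 without NT library 1 and 0.11 without NT library 2. MLXIPL had 334 ± 159 and 327.5 ± 103 (log2FC -0.029 ± 0.39 SE, adjusted p = 0.978 by edgeR). Its GC content was 63.2%, and it had 155 normalized counts in NT library 1, against 460 and 386 in NT libraries 2 and 3. The log2FC of MLXIPL was -0.37 ± 0.23 SE without NT library 1 (adjusted p = 0.353 by edgeR) and 0.25 without NT library 2. With the GC trend of each library removed and no block it was -0.19. MGA, a large repressor that pairs with MAX, had 3509 ± 322 and 3027 ± 222 (log2FC -0.21 ± 0.10 SE, adjusted p = 0.278 by edgeR). Its 3 OXA libraries were below its NT libraries, and with the block it was called lower (adjusted p = 0.0438 by edgeR). It was also called lower with the GC trend of each library removed and no block, an alternative chosen after seeing the data (log2FC -0.16 ± 0.049 SE, adjusted p = 0.0484 by edgeR). Without a block or GC step, 0 of these 3 genes were called by edgeR, DESeq2 or limma-voom, and 0 had an unadjusted p-value under 0.05 by edgeR.

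Among the antagonists of MYC, MXD1 (ENSG00000059728, chr2:69897688-69942945, plus strand), the founding member of the MXD family, rose. It had 148, 113 and 148 normalized counts in NT and 237, 245 and 217 in OXA. The groups were far apart, with the lowest OXA library well above the highest NT library. The means were 136 ± 20.1 and 233 ± 14.3, a 1.71-fold rise with a log2FC of 0.77 and an SE of 0.17 (adjusted p = 0.0436 by edgeR). The pairs gave 0.68, 1.11 and 0.56, so the rise was in all 3. The call was kept without NT library 1 (adjusted p = 0.0261 by edgeR) and lost without any of the other five, with adjusted p-values up to 0.175 by edgeR and log2FCs of 0.62 to 0.80. SNRNP27, a splicing factor gene on the same strand that overlaps the MXD1 span by 7888 bases, had a log2FC of 0.18 (SE 0.098, adjusted p = 0.341 by edgeR).

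MXI1 (ENSG00000119950, chr10:110207605-110287365, plus strand), also called MXD2, was the most abundant antagonist. It had 2018, 1963 and 1897 normalized counts in NT and 2294, 2465 and 2111 in OXA. The groups did not overlap, but the difference was the smallest among the members with this pattern. The means were 1959 ± 60.4 and 2290 ± 177, a ratio of 1.17 (log2FC 0.22 ± 0.093 SE, adjusted p = 0.214 by edgeR). The block brought it just past the threshold (adjusted p = 0.0489 by edgeR). This call was not made with the block in DESeq2 (adjusted p = 0.0994) or with the block and the authors' factors for each gene (adjusted p = 0.0683 by edgeR).

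MXD4 (ENSG00000123933, chr4:2247432-2262109, minus strand) had an estimate close to that of MXD1 and a far larger spread. It had 175, 461 and 510 normalized counts in NT and 485, 856 and 627 in OXA. NT library 1 was far below the others, OXA library 1 was the lowest of its group, and OXA library 1 lay below NT library 3, so that the groups overlapped. The means were 382 ± 181 and 656 ± 187, and the log2FC was 0.78 with an SE of 0.38 (adjusted p = 0.293 by edgeR). The pairs gave log2 ratios of 1.47, 0.89 and 0.30, all in the same direction, and with the block it was called higher (log2FC 0.85 ± 0.21 SE, adjusted p = 0.0383 by edgeR). The estimate was 0.43 without NT library 1 (adjusted p = 0.236 by edgeR) and 0.54 without OXA library 2.

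MNT (ENSG00000070444, chr17:2384073-2401104, minus strand), the antagonist found in most growing cells, and MXD3 (ENSG00000213347, chr5:177301461-177312757, minus strand), which is expressed during DNA replication, showed no difference beyond the spread. MNT had 358, 727 and 618 normalized counts in NT and 558, 830 and 582 in OXA. The groups overlapped, with NT library 1 the lowest and OXA library 2 the highest. Its log2FC was 0.21 with an SE of 0.27 (adjusted p = 0.713 by edgeR), and it was -0.035 without NT library 1 and 0.0067 without OXA library 2. MXD3 had 56.2, 168 and 122 normalized counts in NT and 71.4, 124 and 82.0 in OXA. Library 1 was the lowest in each group, and the log2 ratio was 0.34 in pair 1, -0.44 in pair 2 and -0.58 in pair 3. Its log2FC was -0.32 with an SE of 0.40 (adjusted p = 0.697 by edgeR). It was -0.65 without NT library 1 (adjusted p = 0.172 by edgeR), -0.59 without OXA library 2, -0.17 without OXA library 1 and 0.022 without NT library 2. RAB24, a small GTPase gene on the same strand that overlaps MXD3 by 2284 bases, was below NT in all OXA libraries, with 204 ± 24.2 and 137 ± 8.83 normalized counts (log2FC -0.58 ± 0.16 SE, adjusted p = 0.0865 by edgeR). PRELID1, a mitochondrial lipid transfer gene on the other strand that overlaps MXD3 by 3151 bases, was above NT in all OXA libraries, with 7943 ± 541 and 9558 ± 243 (log2FC 0.27 ± 0.085 SE, adjusted p = 0.119 by edgeR), and was called higher with the block (adjusted p = 0.0203 by edgeR). With the block RAB24 was called lower (adjusted p = 0.0242 by edgeR).

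**Figure D2:**
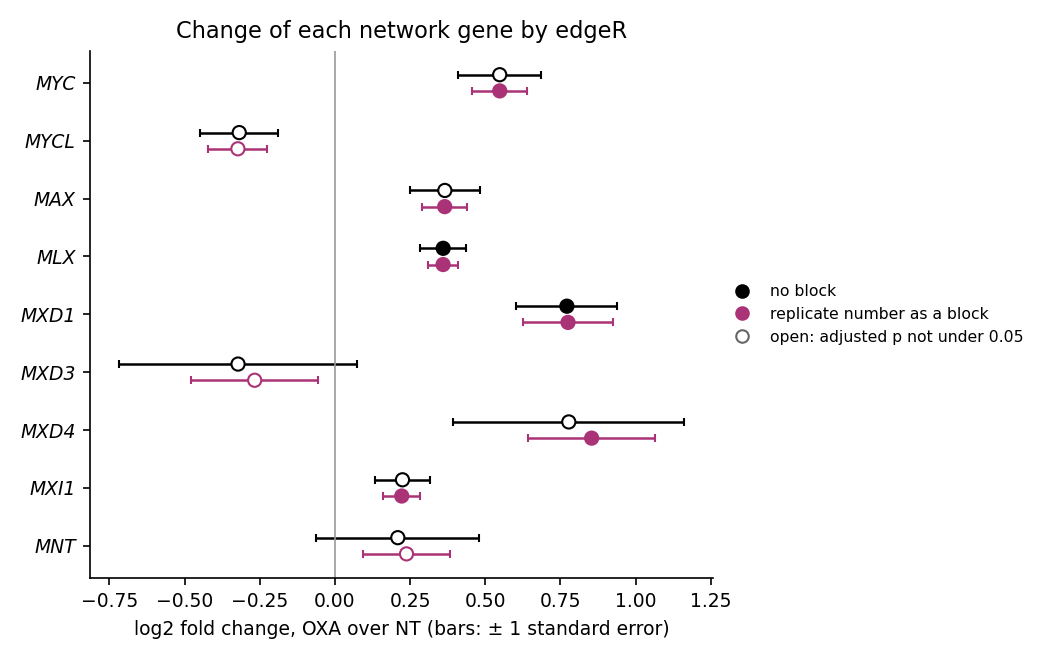
Log2FC of OXA over NT (x axis) for the 9 network genes tested, without a block (black) and with the block on replicate numbers (purple), with bars of 1 SE and filled points for an edgeR adjusted p-value under 0.05. MLX and MXD1 are filled in both fits, MYC, MAX, MXD4 and MXI1 only with the block, and MYCL, MXD3 and MNT in neither.

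In MXD3, MXD4 and MNT, library 1 was the lowest of each group, and in OXA library 2 was the highest. On the log2 scale, NT library 1 differed from the mean of NT libraries 2 and 3 by -1.47 for MXD4, -1.36 for MXD3 and -0.91 for MNT, and OXA library 1 differed from OXA libraries 2 and 3 by -0.61, -0.53 and -0.34. Their longest transcripts had a GC content of 63.5%, 55.8% and 61.3%. Over all genes tested, the median difference of NT library 1 went from 0.23 in the lowest of 10 equal classes of GC content to -1.05 in the highest, and that of OXA library 1 from 0.097 to -0.40. Low-GC members did not share the shortfall, with differences in NT library 1 of 0.18 for MXD1 (GC content 42.9%) and 0.064 for MXI1 (43.7%). MYCL, with a GC content of 56.4%, had 0.065, where the median of its GC class was -0.42. For MYC, with a GC content of 48.8%, the difference was -0.26, where the median of its GC class was -0.024.

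When the trend of each library on GC content was removed without a block, an alternative chosen after seeing the data, edgeR called 5 members higher, MYC, MAX, MXD1, MXD4 and MLX, and 0 lower. The log2FC was then 0.54 for MYC (adjusted p = 0.0213 by edgeR), 0.61 for MXD4 (adjusted p = 0.0292 by edgeR) and 0.33 for MAX (adjusted p = 0.0299 by edgeR). That of MNT went from 0.21 to 0.041, and MXI1 (0.27, adjusted p = 0.0562 by edgeR) was not called. In the same fit 11.7% of all genes were higher and 10.9% lower. What sets the low values of GC-rich genes in library 1 was not tested.

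**Figure D3:**
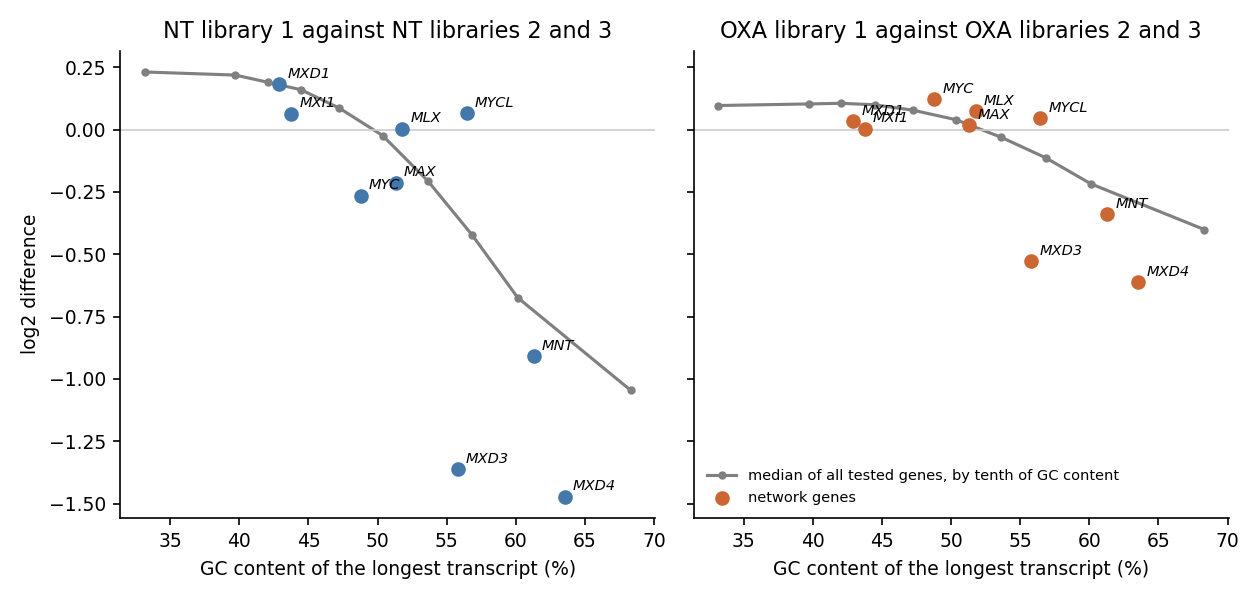
Log2 difference of library 1 from libraries 2 and 3 of its group (y axis; NT left, OXA right) against the GC content of the longest transcript in percent (x axis), with network genes as points and the median of all genes tested in 10 classes of GC content as the grey line. In NT the line goes from 0.23 to -1.05, and MXD3, MXD4 and MNT lie far below 0, MXD4 the lowest at -1.47.

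Levels between genes were compared per length, as normalized CPM per kilobase of exon. MYC was the most abundant member in all 6 libraries, with 41.6 ± 5.83 in NT and 60.8 ± 7.97 in OXA (SD, n = 3). MLX followed with 20.4 ± 0.350 and 26.1 ± 0.787, then MXI1 with 9.22 ± 0.284 and 10.8 ± 0.833, and MAX with 7.22 ± 0.710 and 9.31 ± 0.900. The ranges of MYC, MLX and MXI1 did not touch in either group. MXI1 and MAX were separate in NT but overlapped in OXA (9.93 to 11.6 and 8.37 to 10.2), whereas with the length of the longest coding transcript in place of all exons they overlapped in both groups, and MAX came before MXI1 in OXA, at 18.5 and 18.3.

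The remaining members were lower still. In NT, MYCL had 2.47 ± 0.0710, MNT 1.81 ± 0.606, MXD4 1.54 ± 0.732, MXD3 0.677 ± 0.330 and MXD1 0.597 ± 0.0878 CPM per kilobase. MYCL was above MNT in every NT library (with the longest coding transcript the ranges were 3.40 to 3.60 and 2.02 to 4.10 and overlapped), while MNT and MXD4 overlapped, as did MXD4 and MXD3, and MXD3 and MXD1. In OXA the order was MXD4 (2.65 ± 0.757), MNT (2.10 ± 0.480), MYCL (1.99 ± 0.204), MXD1 (1.02 ± 0.0627) and MXD3 (0.542 ± 0.164). There MXD4, MNT and MYCL overlapped, and MXD1 was above MXD3 in every library, although with the longest coding transcript their means came to 1.16 and 1.13. MXD1, whose rise was called, thus stayed among the rarest mRNAs of the network.

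**Figure D4:**
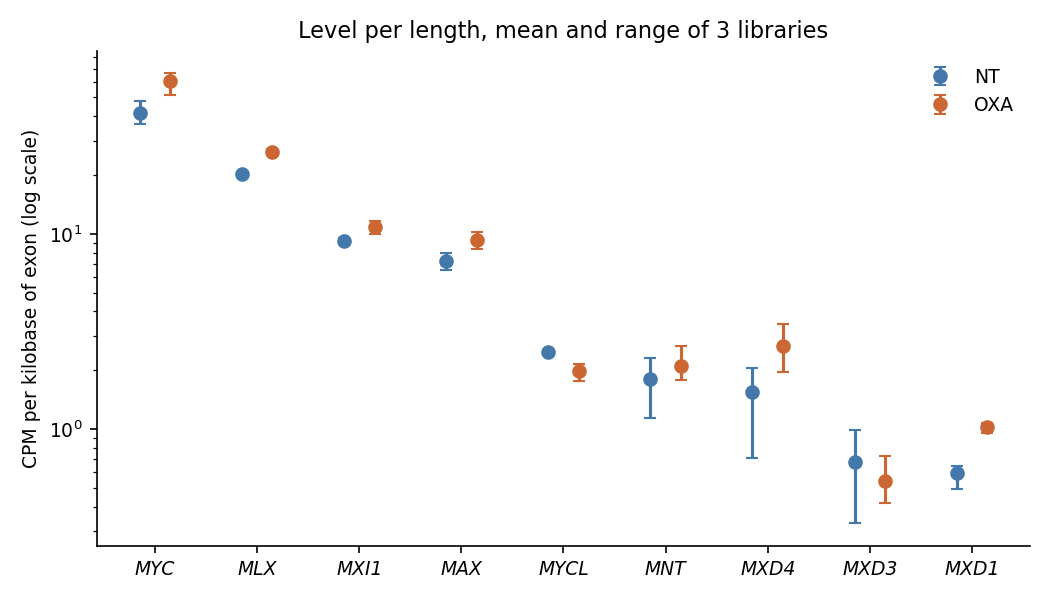
Level per length, in normalized CPM per kilobase of exon (y axis, log scale), of the 9 detected network genes in NT (blue) and OXA (orange), as the mean and the range of 3 libraries. MYC is the highest in both groups and the points of MXD1 (0.597 and 1.02) and MXD3 (0.677 and 0.542) are the lowest.

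On the same per-length scale, the summed level of the antagonists MXD1, MXD3, MXD4, MXI1 and MNT was set against that of the MYC family. The ratio was 0.314, 0.295 and 0.337 in NT libraries 1 to 3 and 0.241, 0.284 and 0.295 in OXA libraries 1 to 3. The means were 0.315 ± 0.0210 and 0.273 ± 0.0285, and the highest OXA library came within rounding of the lowest NT library. MAX relative to MYC was 0.178, 0.166 and 0.179 in NT and 0.146, 0.153 and 0.162 in OXA, where all OXA values were below the NT values. MYCL relative to MYC was 0.0696, 0.0513 and 0.0601 in NT and 0.0315, 0.0326 and 0.0341 in OXA. MYC itself made up 93.5%, 95.1% and 94.3% of the MYC family in NT and 96.9%, 96.8% and 96.7% in OXA. MXI1 made up 77.1%, 62.0% and 62.3% of the antagonists in NT and 67.5%, 59.4% and 63.0% in OXA, with library 1 the highest in each group. These ratios describe mRNA, and since the members were chosen with results known they were given no test.

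The genes around the network were read from 7 lists with 136 distinct genes, of which 129 were tested. In these lists, 8 genes were higher and 3 lower at an edgeR adjusted p-value under 0.05. Over all genes 381 (2.78%) were higher and 315 (2.29%) lower. This split turned to 348 and 493 with upper quartile factors and to 350 and 511 with library totals alone. With the replicate block 31 list genes were higher and 13 lower, where 12.1% of all genes were higher and 10.9% lower.

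The SIN3 corepressor, which the MXD proteins bring to DNA, is a scaffold with histone deacetylases and histone-binding proteins. Of its 10 genes, all tested, 0 were higher and 0 lower by edgeR, with log2FCs of -0.43 to 0.48 and a median of -0.15. At an unadjusted p-value under 0.05, 1 was higher and 3 lower, where 21.7% of all genes passed in either direction. DESeq2 also gave 1 and 3, where it called 4.8% of all genes higher and 4.81% lower, and limma-voom called 0. The counts by edgeR depended on the setting, with 0 higher and 3 lower under upper quartile factors, library totals or removal of the GC trend. No filter gave 0 and 1, and the authors' factors or leaving out NT library 1 gave 1 and 1. Of all 13727 genes, upper quartile factors called 493 lower and library totals 511. Removal of the GC trend called 11.7% of all genes higher and 10.9% lower, and the block 12.1% and 10.9%. With the block, SIN3B was higher (log2FC 0.48), and SIN3A (-0.38), RBBP4 (-0.36) and RBBP7 (-0.43) were lower, with edgeR adjusted p-values of 0.0115, 0.00623, 0.0123 and 0.00781. SIN3A and SIN3B are the alternative scaffolds of the complex, and RBBP4 and RBBP7 bind histone H4. These were named after their values had been seen.

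The MYC cofactors, which open chromatin and release RNA polymerase at MYC targets, had 18 genes, all tested. By edgeR 0 were higher and 0 lower, with 1 higher and 0 lower at an unadjusted p-value under 0.05, and 0 by DESeq2 and by limma-voom. The fit with the block called 12.1% of all genes tested higher and 10.9% lower. With the block KAT2A, ZBTB17 and RUVBL1 were higher (adjusted p = 0.0412, 0.0324 and 0.0148 by edgeR) and CCNT1 was lower (adjusted p = 0.0425 by edgeR). Named after their values were seen, these are a histone acetyltransferase, the MYC partner MIZ1, a chromatin remodelling helicase and a cyclin of transcription elongation. The median log2FC of the list was 0.059. Of the 18 genes of MYC protein turnover, USP28, a deubiquitinase that counters the ubiquitin ligase FBXW7 at MYC, fell from 1574 ± 196 to 1108 ± 44.7 normalized counts (log2FC -0.51 ± 0.12 SE, adjusted p = 0.0498 by edgeR). It was the only one called, at the edge of the threshold, where 2.78% of all genes were higher and 2.29% lower. When 1 library was left out the call was kept only without NT library 1. The call was also made by edgeR with upper quartile factors, library totals, no filter or the block (adjusted p = 0.0387, 0.0339, 0.0436 and 0.00982). It was not made by limma-voom (adjusted p = 0.0536), nor by edgeR with RLE factors, the stricter filter or the authors' factors. DESeq2 called it without a block (adjusted p = 0.00871), and SKP2, the ubiquitin ligase subunit, as well (adjusted p = 0.00978). Over all genes DESeq2 called 4.81% lower. FBXW7 itself had a log2FC of 0.37 and was called with the block (adjusted p = 0.0161 by edgeR), as were SKP2 (log2FC -0.45, adjusted p = 0.00853 by edgeR) and PPP2R5A (-0.23, adjusted p = 0.0293 by edgeR) in the other direction. The median of this list was 0.029.

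Of the 60 genes that MYC is known to activate, 59 were tested. By edgeR 3 were higher and 2 lower, where 2.78% of all genes were higher and 2.29% lower. Those that rose were NME1, a nucleoside diphosphate kinase, from 16403 ± 768 to 23796 ± 901 normalized counts (log2FC 0.54 ± 0.083 SE, adjusted p = 0.015 by edgeR), NOP2, a nucleolar rRNA methyltransferase (log2FC 0.43 ± 0.077 SE, adjusted p = 0.0251 by edgeR), and HK2, the hexokinase that starts glycolysis in many tumors (log2FC 0.62 ± 0.11 SE, adjusted p = 0.022 by edgeR). Those that fell were UNG, the uracil-DNA glycosylase of base excision repair, from 6232 ± 528 to 3487 ± 322 (log2FC -0.84 ± 0.11 SE, adjusted p = 0.00802 by edgeR), and CDC25A, the phosphatase that activates cyclin-dependent kinases (log2FC -0.69 ± 0.13 SE, adjusted p = 0.0259 by edgeR). The estimate was above 0 in 44 of the 59, where 53.3% of all genes were above 0, with a median of 0.099 and a range of -0.84 to 0.70. With the block, 18 were higher and 4 lower, where 12.1% of all genes were higher and 10.9% lower. DESeq2 gave 8 and 2, where it called 4.8% of all genes higher and 4.81% lower. Without NT library 1 the counts were 10 and 2 in the list, and 623 and 571 over all 13888 genes then tested. Without NT library 3, OXA library 1, OXA library 2 or OXA library 3 no gene of the list was higher. Without NT library 2, 1 was higher. Among the 6 fits that leave out a library, UNG was called in 5, HK2 and CDC25A in 2, and NME1 and NOP2 in 1.

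Of the 18 genes that MYC is known to repress, 15 were tested. By edgeR 4 were higher and 0 lower, where 2.78% of all genes were higher and 2.29% lower. CDKN1A, the cell cycle inhibitor p21, rose from 5143 ± 907 to 39110 ± 2895 normalized counts (log2FC 2.93 ± 0.15 SE, adjusted p = 0.000445 by edgeR). BTG2, an antiproliferative factor, rose from 1119 ± 74.3 to 4185 ± 309 (log2FC 1.90 ± 0.10 SE, adjusted p = 0.000445 by edgeR). GADD45A, a DNA damage response gene, had a log2FC of 0.83 (SE 0.11, adjusted p = 0.00908 by edgeR) and NDRG1, a stress and differentiation gene, one of 1.08 (SE 0.18, adjusted p = 0.0209 by edgeR). CDKN1A, BTG2 and GADD45A are also classical p53 targets. The median of the list was 0.10, and 10 of the 15 estimates were above 0, where 53.3% of all genes were. At an unadjusted p-value under 0.05, 7 were higher and 1 lower, where 21.7% of all genes passed in either direction. Neither DESeq2 nor limma-voom called any gene of the list lower. With the block 7 were higher and CDKN1B, the inhibitor p27, was lower (log2FC -0.31, adjusted p = 0.0319 by edgeR). The same fit called 12.1% of all genes higher and 10.9% lower. CDKN1A and BTG2 were called in all 6 fits that leave out a library, GADD45A in 3 and NDRG1 in 2. Without NT library 3, OXA library 1 or OXA library 2, 2 genes of the list were higher.

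Of the 10 known targets of MLXIP and MLXIPL, 6 were tested, where edgeR called 2.78% of all genes higher and 2.29% lower. ARRDC4, an arrestin-domain gene that limits glucose uptake, was the only one called. It rose from 323 ± 13.9 to 637 ± 75.6 normalized counts (log2FC 0.98 ± 0.13 SE, adjusted p = 0.00975 by edgeR), and the call was lost without NT library 3, OXA library 1 or OXA library 3. TXNIP, the best known target of this branch, was listed at 0 in all 6 libraries and gives no value. The median of the 6 was 0.010.

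**Figure D5:**
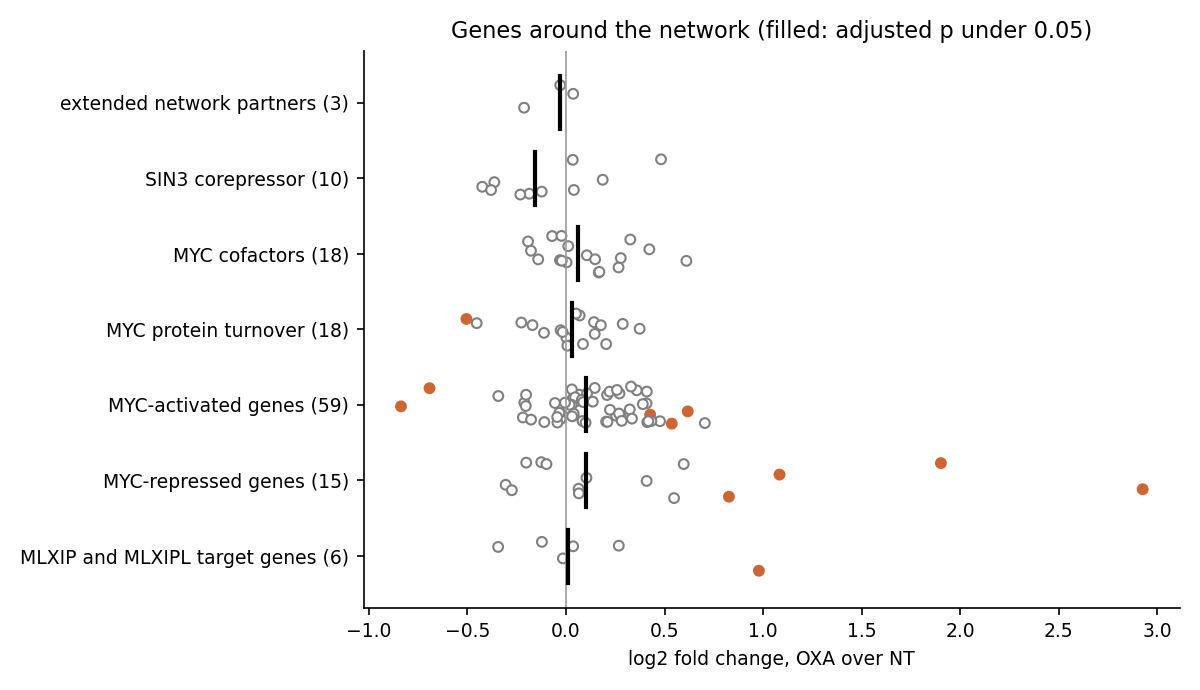
Log2FC of OXA over NT (x axis) for each tested gene of the 7 lists (y axis, number tested in brackets), filled where the edgeR adjusted p-value was under 0.05, with the list median as a black bar. The medians lie between -0.15 and 0.10, and CDKN1A at 2.93 and BTG2 at 1.90 lie farthest to the right.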

How the data were processed

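HCT116 RNA was sequenced as stranded poly(A) libraries (3 NT, 3 OXA). Per the labels, the submitters' processing notes list Trimmomatic 0.32, STAR 2.7.5b, RSEM 1.3.3 and DESeq2 2.13 with GRCh38, and the study's methods name STAR and DESeq2. The annotation and strand setting of the counting are not given in the sources used here. The authors deposited a raw count and a normalized signal for each gene and library. The raw values, all whole, entered the tests as deposited. Since RSEM is listed, they may be rounded estimates in which reads shared between genes were divided, which the sources used here do not settle. The authors' signal, a count multiplied by a factor that differs between genes, served only as an alternative.

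Genes were filtered with filterByExpr (minimum count 10, minimum total 15) and compared by edgeR's quasi-likelihood test with TMM factors (edgeR 4.0.16 in R 4.3.3; alternatives used DESeq2 1.42.0 and limma 3.58.1), two-sided, with Benjamini-Hochberg adjustment over the 13727 genes tested and a threshold of 0.05. The main fit was tested on simulated counts that held no replicate effect and no GC trend, with changes larger than the members' main estimates. The fits with the block or with the GC trend removed were not tested in this way. Gene positions and exon lengths are from GENCODE on GRCh38, and GC content was known for 99.6% of the genes tested. Limits for a count of 0 cover counting error only.

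Deviations from the group means were shared by same-numbered NT and OXA libraries, with correlations of 0.547, 0.542 and 0.307 across genes, against -0.467 to 0.0904 for other pairs. The deviations of a gene cancel within each group, so positive values in some pairs force negative ones in others. The contrast between same-numbered and other pairs is therefore partly set by the centring. The numbers come from the sample titles, which do not say what they stand for.

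The members and gene lists were chosen with earlier results of these data known. Named were all members, MLXIP, MLXIPL, MGA and TXNIP, the genes of each list past the threshold, and for MYC and MLX the 3 genes with the most similar pattern. Some list genes past the threshold only in an alternative fit, among them FBXW7, SKP2, PPP2R5A and CDKN1B, were named after their values had been seen. Alternatives were other factors and filters, DESeq2, limma-voom, the replicate block, the authors' factors and each library left out. Removal of the GC trend was chosen after seeing the data.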

Additional observations from a re-analysis of the deposited data

How the results depend on the processing

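The direction of MYC, MYCL, MAX, MXD1, MXD4, MXI1 and MLX was kept under all 13 alternatives and all 6 fits that leave out a library. MXD3 (-0.65 to 0.022) turned to 0.022 without NT library 2, and MNT (-0.035 to 0.40) to -0.035 without NT library 1. MXD1 and MLX were called in 11 of the 13 alternatives and in 1 of the 6 fits. Without the filter on low counts 0 members were higher, and 5 list genes lower, where 331 of all genes were higher and 347 lower. With the authors' factors 0 members were higher, and 241 genes were higher and 200 lower in all. The replicate block gave 6 members higher, 31 list genes higher and 13 lower, and 1664 and 1493 of all genes. DESeq2 with the block gave 5 members, 38 and 11 list genes, and 1544 and 1203 in all. The block with the authors' factors gave 5, 29 and 11, and 1319 and 1167. Removal of the GC trend gave 5, 25 and 13, and 1600 and 1502, and with the block 6 higher and 1 lower (MYCL), 51 and 28, and 3260 and 2976. DESeq2 gave 16 and 7 list genes and 633 and 635 in all. Lower list genes numbered 7 with upper quartile factors (493 in all) and 7 with library totals (511 in all). Leaving out 1 library gave 0 to 2 members higher, 2 to 18 list genes higher and 0 to 6 lower, and 66 to 623 of all genes higher and 19 to 571 lower, these last lowest without OXA library 1 and highest without NT library 1. The summed antagonist ratio moved by less than 1 SD when a library was left out or another length was used. With the length of the longest coding transcript the levels per kilobase were higher, for example 68.3 and 99.8 for MYC in NT and OXA. Libraries within a group differed by more than counting error (chi-square per gene 19.3 to 83.6), and among the members depth set only the limit given for MYCN.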

Other observations

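Over the 6 libraries, the genes whose pattern was most like that of MYC among 12065 genes with a mean of at least 50 normalized counts were CMIP, an adaptor of immune and kinase signalling, HMOX2, the constitutive haem oxygenase, and SHB, an adaptor of tyrosine kinase receptors. Their root mean square difference from MYC in log2 level, each gene centred on its own mean, was 0.0376, 0.043 and 0.0465, where the median over all genes was 0.361. CMIP had 1703, 2172 and 1906 normalized counts in NT and 2930.0, 3117 and 2525 in OXA, so that, as in MYC, libraries 2 were the highest and NT library 1 the lowest. The log2 fold change was 0.57 for CMIP, 0.54 for HMOX2 and 0.55 for SHB.

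For MLX, the genes most alike were FAHD1, a mitochondrial oxaloacetate decarboxylase, LINC00346, a long non-coding RNA, and AARSD1, an alanyl-tRNA editing factor. Their difference from MLX was 0.0137, 0.0213 and 0.0229, where the median over all genes was 0.259. FAHD1 had 677, 706 and 663 normalized counts in NT and 902, 858 and 853 in OXA. With 6 libraries many genes share a pattern, and the likeness is given as a description.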
